A study of Mus musculus with 5 samples.

Results

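Chemokine ligands are small secreted proteins that bind receptors on leukocytes and direct their movement into tissue. Of 10 ligand genes listed by symbol (Ccl2, Ccl3, Ccl4, Ccl5, Ccl6, Ccl9, Cxcl1, Cxcl10, Cxcl12 and Cxcl15), 8 had values on at least 4 of 5 arrays and were tested among 10081 genes and unnamed features. The other two, Ccl2 and Cxcl10, each had 1 feature without a value on any array, and no source used here says why these values are missing. Each of the 10 genes was represented by 1 feature.

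RNA came from lungs of 129svJ mice, an inbred strain, that had received bleomycin, an antitumour antibiotic used to injure the lung and bring about fibrosis in mice. On each array, amplified RNA of 1 treated mouse (channel 1, mice 1 to 5) was set against amplified lung RNA pooled from control 129svJ mice (channel 2). The same pool served all 5 arrays, so the control side is 1 sample and the spread between control mice is not in any value below. The sources used here do not give the dose, route or time of bleomycin, the age or sex of the animals, how many controls were pooled, or the dyes.

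Every value is a log ratio of the 2 channels, read as log2, after the median of its array was subtracted. No source states the log base, and with natural logarithms each fold would be larger. Without the dyes, the sign has no settled meaning. Sample titles list the treated mouse first and the pool second, but they do not say whether a value below 0 means less or more RNA in the treated mouse. Values are therefore described by their size and their side of 0. In lung tissue, a different number of cells of a type and a different amount of RNA per cell cannot be told apart.

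The family is divided by the spacing of the first cysteines, mainly into CC (Ccl) and CXC (Cxcl) ligands. These ligands bind G protein-coupled receptors of the matching class. Macrophages, epithelium and stroma make many of them on demand after injury, under the control of NF-kB, AP-1 and interferon signalling, and they draw in monocytes, neutrophils and T cells. Others, such as Cxcl12, are made steadily by stromal cells. In the lung, chemokines are known for bringing in the leukocytes that accompany bleomycin injury.

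Of the 8 ligands with values, 7 lay below 0 in every mouse measured and 1, Cxcl12, lay above 0 in every mouse. All 8 passed the test against 0 (limma, adjusted p under 0.05 over all 10081). The largest ratios belonged to Cxcl1, at −2.70 ± 0.58 (SD, n = 5 mice; a 6.51-fold difference), and Ccl3, at −2.54 ± 0.32 (5.81-fold), followed by Ccl9 at −1.15 ± 0.13 (2.22-fold). The other four below 0, Cxcl15, Ccl5, Ccl4 and Ccl6, differed between 1.37-fold and 1.88-fold. Among all genes and features tested, 23.9% passed below 0 and 25.8% above 0, while 5.59% passed with at least a 2-fold difference, as 3 of the 8 ligands did. The median of the 8 means was −0.81, against −0.01 over all features.

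The control side was also given the variance of 1 animal, taken as that between the treated mice. With this variance added, Ccl3, Ccl9 and Cxcl1 still passed and the other five ligands did not, while 2.11% of all features passed below 0 and 2.98% above 0. An exact sign-flip test on a single gene could not go below p = 0.0625 with 5 mice or p = 0.125 with 4, and each ligand stood at that smallest value.

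**Figure D1:**
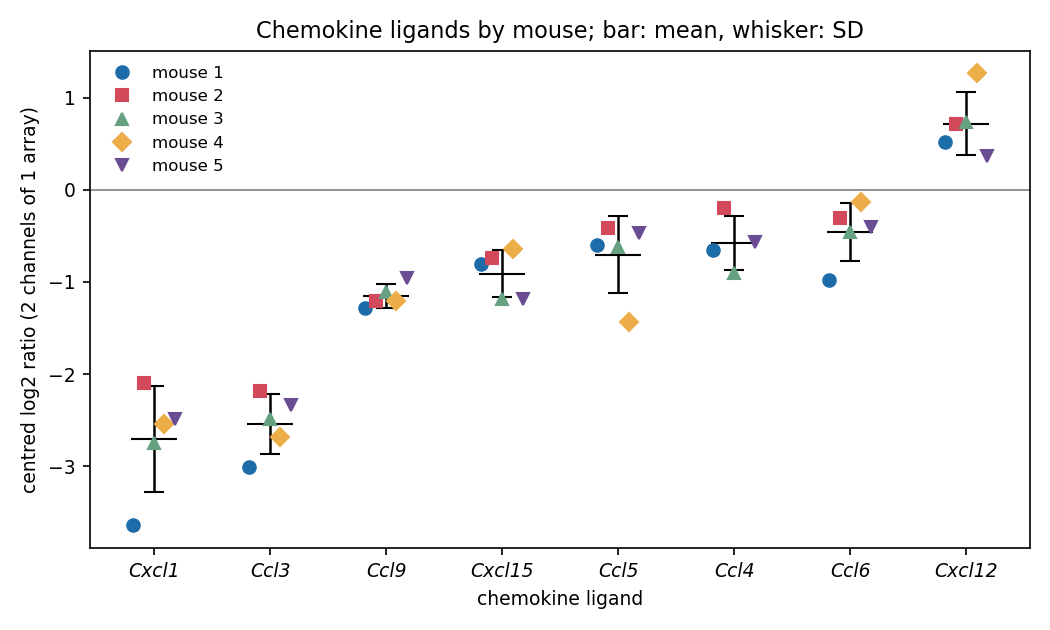
Centred log2 ratio of each tested chemokine ligand (vertical axis) in each of 5 mice (coloured symbols), with the mean (bar) and SD (whisker) per gene. Cxcl1 and Ccl3 lie at −2.09 or lower in every mouse, and Cxcl12 is the only gene with all mice above 0.

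**Figure D2:**
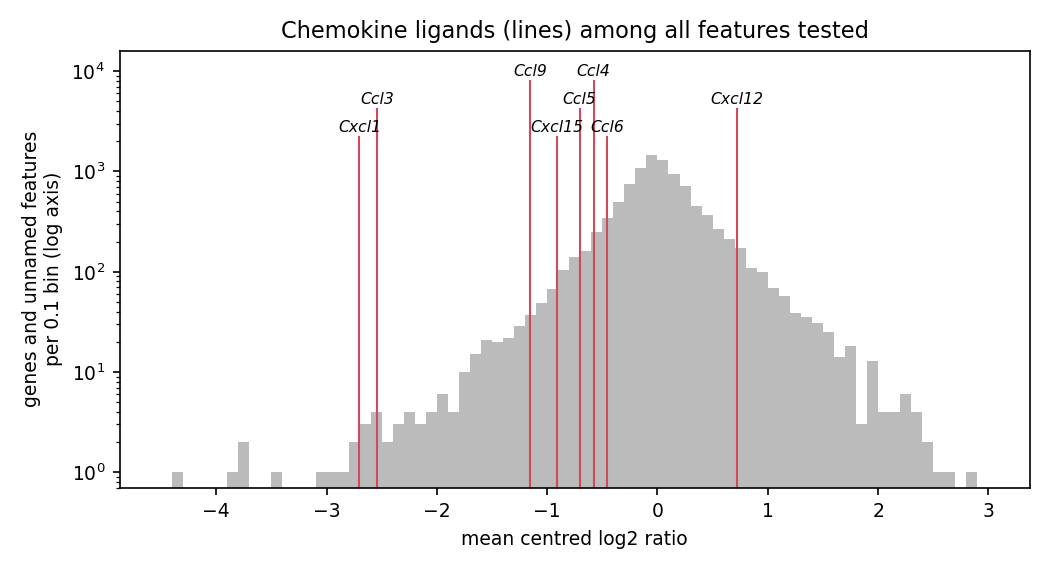
Histogram of the mean centred log2 ratio of 10081 genes and unnamed features (horizontal axis) with the number per bin on a log axis, and the 8 ligands as red lines. Cxcl1 and Ccl3 stand in the far lower tail, whereas Ccl6, at −0.46, and Cxcl12, at 0.72, lie where many features do.

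The sequence before the annotated start is shown for the 3 ligands farthest below 0 and for Cxcl12 on the other side, since these 4 genes span the range of ratios. The sequences are RefSeq's of the GRCm38.p6 build, 250 bases each, read 5′ to 3′ on the strand of the gene and ending 1 base before the start. They lie at chr5:90890995-90891244 (+ strand) for Cxcl1, chr11:83649379-83649628 (- strand) for Ccl3, chr11:83578637-83578886 (- strand) for Ccl9 and chr6:117168285-117168534 (+ strand) for Cxcl12. Capitals mark matches to any of the motifs named after them.
Cxcl1: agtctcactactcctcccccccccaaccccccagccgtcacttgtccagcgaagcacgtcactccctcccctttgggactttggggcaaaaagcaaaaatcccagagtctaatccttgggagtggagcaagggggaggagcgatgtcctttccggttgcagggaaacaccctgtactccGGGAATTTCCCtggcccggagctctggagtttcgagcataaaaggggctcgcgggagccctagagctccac
Ccl3: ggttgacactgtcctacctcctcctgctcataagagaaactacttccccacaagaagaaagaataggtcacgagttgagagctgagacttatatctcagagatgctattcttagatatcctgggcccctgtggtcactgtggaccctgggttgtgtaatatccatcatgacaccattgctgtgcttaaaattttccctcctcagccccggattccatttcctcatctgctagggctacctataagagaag
Ccl9: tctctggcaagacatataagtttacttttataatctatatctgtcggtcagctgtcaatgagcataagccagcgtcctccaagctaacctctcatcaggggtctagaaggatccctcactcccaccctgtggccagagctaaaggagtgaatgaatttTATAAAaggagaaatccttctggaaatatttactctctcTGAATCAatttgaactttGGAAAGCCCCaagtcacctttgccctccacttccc
Cxcl12: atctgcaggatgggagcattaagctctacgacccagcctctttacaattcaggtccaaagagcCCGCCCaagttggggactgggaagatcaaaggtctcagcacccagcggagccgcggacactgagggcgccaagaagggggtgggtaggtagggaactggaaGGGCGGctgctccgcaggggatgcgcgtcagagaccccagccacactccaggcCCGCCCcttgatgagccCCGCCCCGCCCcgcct

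The motifs were the NF-kB consensus, the AP-1 motif TGANTCA, the GC box GGGCGG and the interferon-stimulated response element GAAANNGAAA, each on both strands, and the TATA box TATAAA on the strand of the gene. In Cxcl1, 2 overlapping NF-kB matches, GGGAATTTCC and GGAATTTCCC, together spanned bases 71 to 61 before the start. Ccl9 held 1 NF-kB match, 1 AP-1 match and 1 TATA box. Ccl3, whose ratio was nearly as large as that of Cxcl1, held no match to any motif in this window. Cxcl12 held 5 GC box matches, of which the last 2 shared 1 base, and none of the other motifs. Over all 32851 windows of this length, 7.25% held the NF-kB consensus, 6.75% the AP-1 motif, 7.59% the TATA box, 2.98% the response element and 32.7% the GC box. Windows were given for 7 of the 10 ligands, and besides those printed Cxcl15 held a TATA box, Ccl6 held no match, and Cxcl10, which had no array value, held NF-kB, AP-1 and response element matches. A match describes letters and is no evidence of binding.

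Ccl3, macrophage inflammatory protein 1-alpha, attracts monocytes and other leukocytes and binds Ccr1. Its log2 ratios were −3.01, −2.18, −2.49, −2.69 and −2.33 in mice 1 to 5. The values kept within 0.83 of each other, and its mean ranked 17 of 10081 by distance from 0. The mean of −2.54 had adjusted p = 2.41e-05, and 0.0106 with the control variance added (adjusted p).

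Ccl4, macrophage inflammatory protein 1-beta, is close to Ccl3 in sequence and attracts monocytes and T cells. It stood at −0.65, −0.20, −0.90 and −0.57 in mice 1, 2, 3 and 5 and had no value in mouse 4. No mouse came near its own Ccl3 value, and mouse 2 was the nearest to 0. The mean was −0.58 ± 0.29 (SD, n = 4; adjusted p = 0.00824). Ccl4 did not pass without limma's moderation of the variance (adjusted p = 0.0655) or against a 1.2-fold minimum (adjusted p = 0.0826).

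Ccl5, also known as RANTES, attracts T cells, monocytes and eosinophils. Its values in mice 1 to 5 were −0.60, −0.41, −0.62, −1.44 and −0.47. Mouse 4 stood well below the other four, which lay within a narrow band from −0.62 to −0.41. The mean was −0.71 ± 0.42 (n = 5; adjusted p = 0.007). Without mouse 4 the mean was −0.52. Unmoderated, Ccl5 just missed the limit (adjusted p = 0.0504), as it did against a 1.2-fold minimum (adjusted p = 0.0534).

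Ccl6 and Ccl9 are rodent CC chemokines that signal through Ccr1 and are made by macrophages and myeloid cells. Ccl9 was at −1.28, −1.21, −1.11, −1.21 and −0.95 in mice 1 to 5. Its SD of 0.13 was the smallest of the 8 ligands, and its mean of −1.15 had adjusted p = 2.97e-05. Ccl6 was at −0.98, −0.31, −0.46, −0.14 and −0.41. Mouse 1 was farthest from 0 and mouse 4 nearest, and the mean was −0.46 ± 0.32 (n = 5; adjusted p = 0.0149). Ccl6 did not pass unmoderated (adjusted p = 0.0698) or against the 1.2-fold minimum (adjusted p = 0.245). In each mouse Ccl9 lay farther below 0 than Ccl6.

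Cxcl1, also called KC, draws neutrophils through Cxcr2. Its values were −3.64, −2.09, −2.75, −2.55 and −2.48 in mice 1 to 5. Mouse 1 was lowest and mouse 2 nearest to 0, a span of 1.55 that was the widest of the 8 listed ligands. The mean had adjusted p = 9.23e-05, and it was −2.47 without mouse 1. The ranges of Cxcl1 and Ccl3 overlapped, and both lay apart from the range of every other listed ligand.

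Cxcl15, or lungkine, is a neutrophil attractant made by lung epithelium. It stood at −0.80, −0.75, −1.19, −0.64 and −1.18 in mice 1 to 5. Mice 3 and 5 were lower than the other three. The mean was −0.91 ± 0.26 (n = 5; adjusted p = 0.000404, and 0.0812 with the control variance added). Its range overlapped that of Ccl9.

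Cxcl12, or SDF-1, is made by stromal and endothelial cells and holds Cxcr4-bearing cells in place. It stood at 0.52, 0.71, 0.73, 1.26 and 0.36 in mice 1 to 5. Mouse 4 was the highest, and no mouse came below 0.36. The mean was 0.72 ± 0.34 (n = 5; a 1.65-fold difference; adjusted p = 0.00304), which did not pass with the control variance added (adjusted p = 0.231). Of all features, 93.4% had a lower mean.

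Mice did not stand in the same order for every ligand. Mouse 1 had the lowest value for Ccl3, Ccl6, Ccl9 and Cxcl1, mouse 3 for Ccl4 and Cxcl15, mouse 4 for Ccl5 and mouse 5 for Cxcl12. Mouse 2 had the value nearest to 0 for Ccl3, Ccl4, Ccl5 and Cxcl1. The mean over the ligands was −1.31 in mouse 1, −0.80 in mouse 2, −1.10 in mouse 3, −1.06 over 7 ligands in mouse 4 and −1.004 in mouse 5. The array of mouse 1 also had the widest spread over all features, with an SD of 0.61 against 0.51 to 0.54 on the other arrays, and the part of this spread in the order of the mice was not tested. With any 1 mouse left out, all 8 ligands kept their side of 0 and passed the test.

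Markers of the cells that make or follow these ligands, and markers of skeletal muscle, were read on the same scale. On it 23.9% of all features passed below 0 and 25.8% above. Of 9 macrophage and monocyte markers with values, 6 passed below 0 and 1 above 0, with the complement gene C1qb at −2.68 and the mannose receptor Mrc1 at 0.58 on 4 arrays. Itgam and Mpeg1, at −0.03 and 0.04, did not pass. The median over the markers with a value in a mouse was −1.34, −0.55, −0.35, −0.94 and −0.88 in mice 1 to 5. Mrc1 had no value in mouse 1 and C1qc had none in mouse 2, so these medians rest on unlike sets. Of 8 neutrophil markers 2 passed below 0, which at 25% is near the share of all features, and 1 above 0, with a median of −0.16. Of 7 T and NK cell markers 0 passed below and 1 above 0, with a median of 0.05. Of 4 B and plasma cell markers 2 passed below 0, and of 3 eosinophil, mast cell and basophil markers 1 passed above 0. All 5 endothelial markers with values passed above 0, with a median of 0.94, and of 6 stromal markers 3 passed below and 2 above 0. Of 9 skeletal muscle markers 7 passed below 0, with medians of −4.42, −3.26, −0.23, −0.48 and −3.48 in mice 1 to 5. Tnni2 had no value in mouse 4, and the median of that mouse leaves it out. Of 8 markers of type 2 alveolar and club cells, which are part of the lung epithelium, 4 passed above 0 and 0 below, with a median of 0.36. With the control variance added, 1 macrophage and monocyte marker and 1 B and plasma cell marker passed below 0. Above 0 were 2 endothelial markers and 1 marker of type 2 alveolar and club cells. Of the stromal markers 1 passed on each side, while the other lists, among them skeletal muscle, had 0. In that setting 2.11% of all features passed below 0 and 2.98% above 0. The part of these cells in the ligand ratios was not tested.

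A wider list of 30 ligands, among them the chemokine-like cytokine Mif, had 17 members with values on at least 4 arrays. Of these, 11 passed below 0 (64.7%, against 23.9% of all features), 1 passed above 0 (5.88%, against 25.8%) and 5 did not pass, and their median was −0.45. With the control variance added, 2 of the 17, Ccl12 and Ccl20, passed below 0 and 0 passed above 0. In that setting 2.11% of all features passed below 0 and 2.98% above 0. Ccl12, a monocyte attractant that binds Ccr2, was farthest below 0, with −2.43, −1.44, −2.05, −1.86 and −2.24 in mice 1 to 5. Its mean of −2.004 ± 0.38 (n = 5) had adjusted p = 6.6e-05, and it stayed past the limit with the control variance added (adjusted p = 0.0225).

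Among ligands of dendritic and T cell traffic, Ccl17, which binds Ccr4, was at −2.39, −1.79, −1.44, −0.997 and −0.62. Mouse 1 was lowest and mouse 5 nearest to 0, and the mean was −1.45 ± 0.69 (adjusted p = 0.00246). Ccl22, the other Ccr4 ligand, averaged −0.13 ± 0.16 and did not pass (adjusted p = 0.144), but passed at −0.20 with mouse 1 left out (adjusted p = 0.0303). Ccl19, which guides cells to lymph nodes through Ccr7, was at −0.75 ± 0.26, and Ccl20, which binds Ccr6, at −1.18 ± 0.20 on 4 arrays.

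Cxcl14, a chemokine of epithelium and fibroblasts, was at −1.42 ± 0.39 and Mif at −1.17 ± 0.33. Ccl8, a monocyte and T cell attractant, was at −1.08 ± 0.49 on 4 arrays and the B cell attractant Cxcl13 at −0.86 ± 0.61. Smaller ratios that passed were those of the platelet chemokine Pf4 at −0.45 ± 0.45, Cxcl9 at −0.31 ± 0.25 and Ccl1 at −0.25 ± 0.11. Pf4 (adjusted p = 0.049) no longer passed once mouse 2, 3 or 5 was left out, nor without centring (adjusted p = 0.0563). Leaving out mouse 1 moved the Pf4 mean to −0.27. Cxcl9 (adjusted p = 0.0307) no longer passed once mouse 1, 3, 4 or 5 was left out. Ccl8 and Cxcl13 did not pass unmoderated.

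Ligands of Cxcr3, which are induced by interferon, lay on both sides of 0. Cxcl11 stood at 0.61, 0.62, 0.23, 0.36 and 0.47 (mean 0.46 ± 0.17; adjusted p = 0.00208), the only one of the wider list to pass above 0. Cxcl9 stood at −0.33, 0.04, −0.48, −0.59 and −0.19, and Cxcl10 had no value. The eosinophil attractants Ccl11 (4 arrays) and Ccl24, at −0.20 and −0.13, did not pass (Ccl24 did unmoderated, with adjusted p = 0.0168), nor did Cxcl16 at −0.05 or Ppbp at 0.10 on 4 arrays. Ccl11 was at −0.10 without mouse 1 and Cxcl16 at −0.02 without mouse 2.

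Ligands with values on fewer than 4 arrays were not tested. Ccl7, a monocyte attractant, had −1.15 in mouse 1 and −0.59 in mouse 3. Cxcl2, another neutrophil attractant that binds Cxcr2, had −0.31 in mouse 3 and −0.37 in mouse 4. Cxcl5 had −0.16, 0.003 and −0.02 in mice 1, 2 and 4, Cx3cl1 had 0.46, 0.25 and 0.36 in mice 1 to 3, and Ccl25 had 0.13 in mouse 4 and −0.05 in mouse 5.

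**Figure D3:**
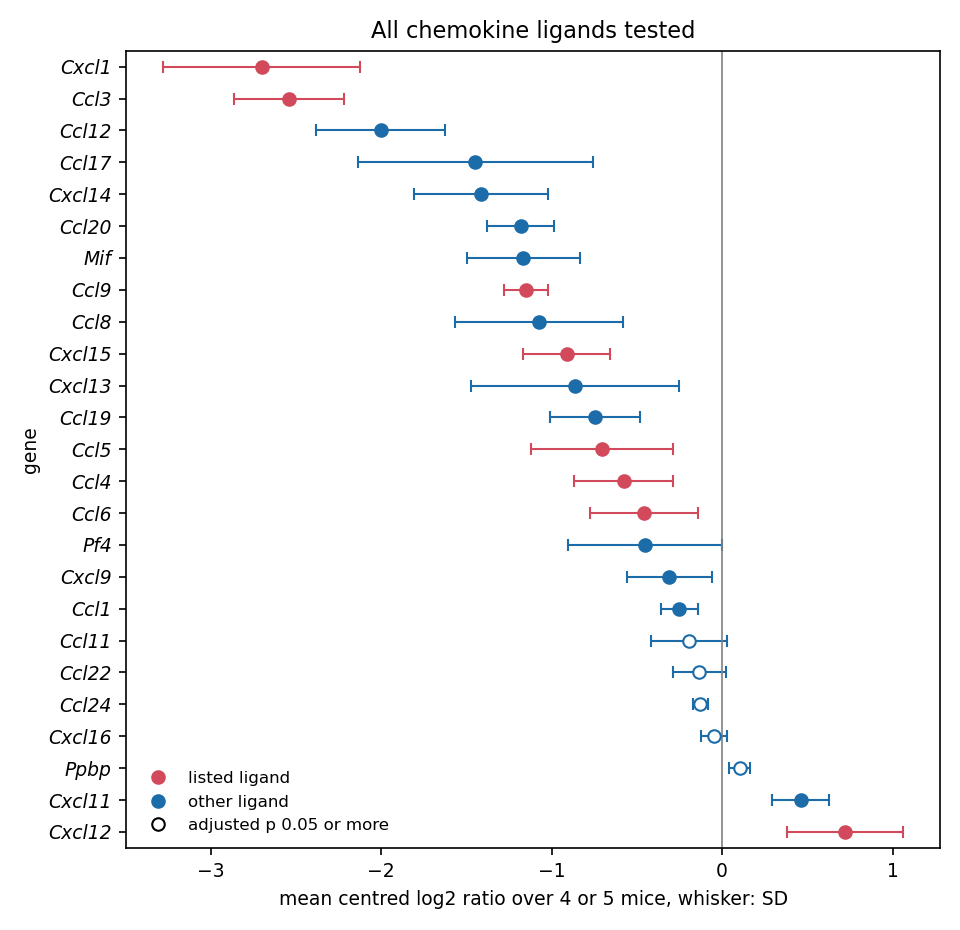
Mean centred log2 ratio (horizontal axis) of the 25 chemokine ligands tested, with SD whiskers over 4 or 5 mice, the listed ligands in red and the others in blue, open where adjusted p was 0.05 or more. Most filled points lie below 0, and Cxcl11 and Cxcl12 are the filled points above it.

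Many of these genes sit side by side in the genome, so that neighbours can be set next to each other. In the RefSeq gene order, Ccl5, Ccl9, Ccl6, Ccl3 and Ccl4 follow each other on chromosome 11 with no other coding gene between them. Their means in this order were −0.71, −1.15, −0.46, −2.54 and −0.58. Ccl3 thus lay below both of its neighbours in every mouse that had the values. In a second run on chromosome 11, of Ccl2, Ccl7, Ccl11, Ccl12, Ccl8 and Ccl1, Ccl12 at −2.004 stood between Ccl11 at −0.20 and Ccl8 at −1.08. On chromosome 5, Cxcl1 at −2.70 followed Cxcl15 at −0.91, and its other neighbour Cxcl2 had values on 2 arrays, −0.31 and −0.37. The sequence of the array features was not used here, so signal from similar transcripts of neighbouring genes was not tested.

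**Figure D4:**
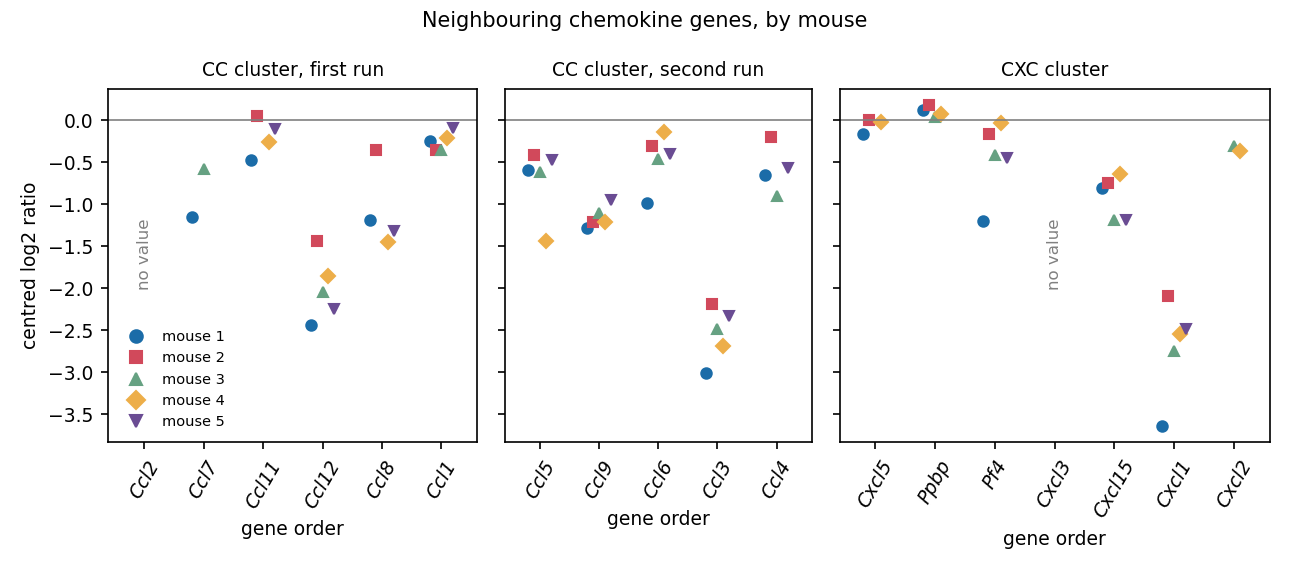
Centred log2 ratio by mouse (coloured symbols) for chemokine genes in their order along the genome, with equal spacing and no scale of distance, in 3 runs of consecutive coding genes. Ccl12, Ccl3 and Cxcl1 have the lowest mean of the tested genes in their run, and Ccl2 and Cxcl3 have no value.

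By root mean square difference over the arrays that both had, the genes with profiles nearest to Ccl3 were Tamm41, a mitochondrial lipid enzyme, at 0.198 and Vcan, the matrix proteoglycan versican, at 0.255 (5 arrays each). Nearest to Ccl9 were Ccl20 at 0.09 over 4 arrays and Fbxo8, an F-box protein, at 0.102 over 5. Nearest to Cxcl1 were the acute-phase protease inhibitor Serpina3n at 0.315 and Ccl3 at 0.321, over 5 arrays. This measure sets both size and pattern side by side, in log2 units.

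Chemokine receptors carry the signal into leukocytes. Of 11 receptors with values on at least 4 arrays, 2 passed below 0, 1 passed above 0 and 8 did not pass, and the median was −0.01. These are shares of 18.2% below and 9.09% above 0, against 23.9% and 25.8% over all features. Cx3cr1, the receptor of monocytes and microglia for Cx3cl1, stood at −2.48, −1.93, −1.97, −2.12 and −2.43 in mice 1 to 5. No mouse lay above −1.93, and the mean was −2.19 ± 0.26 (adjusted p = 2.32e-05, and 0.0103 with the control variance added). Ccr9, a homing receptor of gut T cells, was at −0.41 ± 0.19.

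Ccrl2, an atypical receptor that binds chemerin, was at 1.75, 0.12, 0.69, 0.57 and 0.40. Mouse 1 was the highest, and without it the mean moved from 0.71 to 0.44. Ccrl2 (adjusted p = 0.03) no longer passed once mouse 3, 4 or 5 was left out. The receptors of several listed ligands did not pass: Ccr1 averaged −0.20 ± 0.23 on 4 arrays, Cxcr3 −0.16 ± 0.17, and the Cxcl12 receptors Cxcr4 and Ackr3 0.11 ± 0.15 on 4 arrays and 0.16 ± 0.12. Single mice moved these small means: Ccr1 was at −0.11 without mouse 1, Cxcr3 at −0.09 without mouse 4 and Cxcr4 at 0.05 without mouse 3. Ackr3 passed without centring (adjusted p = 0.0463). Ccr2 had no value on any array, and Cxcr2 had values of −0.06 and 0.05 on 2 arrays.

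Of 19 measured genes that act below the receptors, 4 passed on each side of 0 and the median was −0.08. That is 21.1% on each side, near the 23.9% and 25.8% over all features. Rac2, the GTPase of blood cell migration, averaged −1.01 ± 0.20 and the myeloid kinase Fgr −0.97 ± 0.16, and both passed with the control variance added (adjusted p = 0.0363 and 0.0267). Rgs16, which shortens G protein signalling, was at −0.61 ± 0.25. Above 0 were the G protein subunits Gnai3 at 0.87 ± 0.31 and Gnb2 at 0.62 ± 0.38 and the receptor kinase Grk5 at 0.47 ± 0.26 on 4 arrays. Grk5 (adjusted p = 0.013) no longer passed once mouse 2 was left out.

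Of 22 measured genes that induce chemokines or hold them in check, 8 passed below 0 (36.4%, against 23.9% of all features), 4 passed above 0 (18.2%, against 25.8%) and 10 did not pass. Tnf, a strong inducer of Cxcl1 and Ccl3 through NF-kB, stood at −1.18, −1.36, −1.48, −1.41 and −0.95 (mean −1.27 ± 0.21; adjusted p = 6.48e-05). Il6 was at −0.98 ± 0.48, with mouse 1 lowest at −1.70. Socs3, an inhibitor of cytokine signalling, was farthest below 0 at −1.89 ± 0.37. On the other side Ifngr1, a chain of the interferon gamma receptor, stood at 1.75 ± 0.37, Zfp36, which destabilises cytokine transcripts, at 0.50 ± 0.15 and the kinase Irak1 at 0.41 ± 0.15. Il1b, Nfkbia and Irf1 were not among the genes tested.

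**Figure D5:**
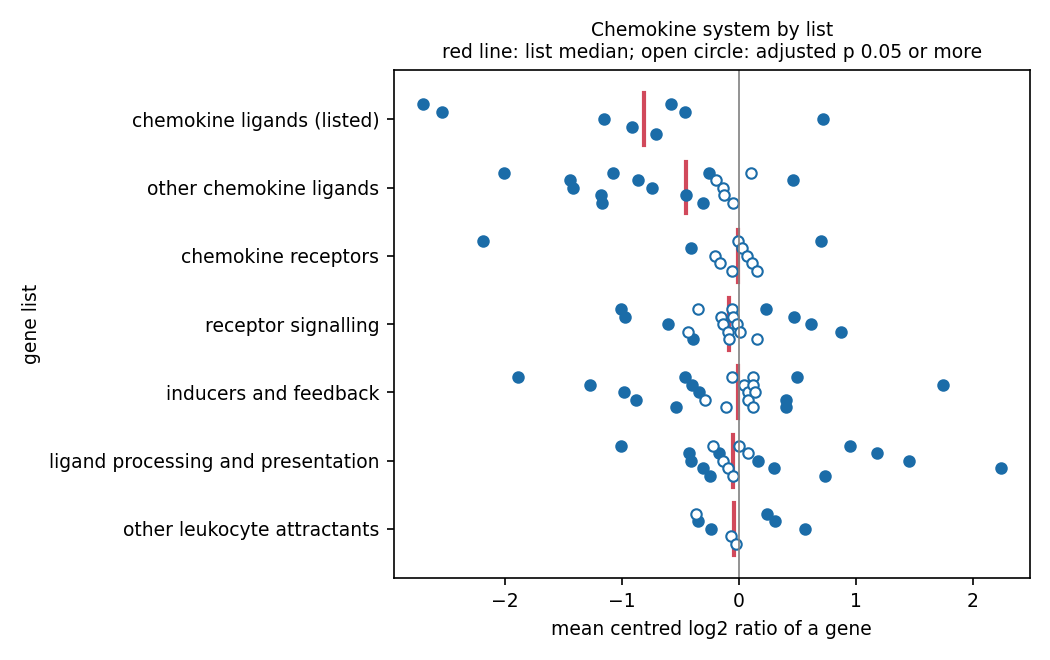
Mean centred log2 ratio (horizontal axis) of each gene in 7 lists of the chemokine system, with the list median as a red line and open circles where adjusted p was 0.05 or more. The medians of both ligand lists, −0.81 and −0.45, lie below 0, and those of the other lists lie between −0.08 and −0.01.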

How the data were processed

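The members and gene lists were chosen with earlier results of these data known. The deposited table holds 1 log ratio per feature and array, taken as log2 ratios. The sources used here do not give the authors' scanner, background correction, normalization or ratio direction. Deposited array medians lay between 0.011 and 0.026 and were subtracted. With no intensities used, brightness over background cannot be given, and precision is limited by having 5 arrays. Arrays correlated with Pearson's r from 0.732 to 0.857 across genes, which are not independent and share the pool.

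Of 17280 features, 10702 had values on at least 4 arrays. In the platform annotation 14722 features had 1 symbol, 1 had several and 2557 had none. An update through gene identifiers, matched for 14445 features in a RefSeq table of GRCm38.p6, changed 0 symbols. Features of 1 symbol were averaged, which gave 10081 tested rows, 9039 with a symbol. Each mean was set against 0 by limma 3.58.1 under R 4.3.3 (intercept only, empirical Bayes, two-sided, Benjamini-Hochberg over all rows). The fit was checked on simulated data with independent noise. That simulation held no error from the shared pool or the dyes, so it could not show their effect. The test omits variation among controls, and whether dye bias cancels is unknown. The labels number the treated mice 1 to 5.

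Named genes were the listed ligands, other ligands, and up to 3 genes per list and side that passed and lay farthest from 0, with a fixed set of receptors, cytokines and regulators named where tested. The 2 nearest profiles were taken for ligands that passed at 2-fold. Alternatives were the centring, the array minimum, features kept apart, unmoderated and robust tests, a required 1.2-fold difference, the pool as 1 control mouse, and leaving out each mouse. Protein sequences were not used here.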

Additional observations from a re-analysis of the deposited data

Results flagged for a closer look

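In 55 named genes with values, 3 had a single mouse far from the others by Dixon's criterion for 4 or 5 values. Chance meets this criterion in about 1 of 20 genes, and 3 of 55 is near that share. Ccl5 was at −1.44 in mouse 4, against −0.62 to −0.41 in the other mice. Gnai3 was at 1.41 in mouse 1, against 0.65 to 0.86 in the others. Ext2, an enzyme of heparan sulfate synthesis, was at 1.88 in mouse 4, against 1.27 to 1.41 in the others.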

How the results depend on the processing

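With each mouse left out in turn, 7 listed ligands passed below 0, 1 above 0 and 3 at 2-fold. The count below 0 was 4 with the unmoderated test and 4 against a 1.2-fold minimum, in both without Ccl4, Ccl5 and Ccl6. With the pool counted as 1 control mouse it was 3, and the count above 0 was 0 by limma. Since only the control variance differs in that setting, the sizes are unchanged. No centring, quantile normalization, features on at least 3 arrays and robust moderation changed no listed ligand's call. Features kept apart and platform symbols changed none either, but they could not alter a listed ligand's ratio. Each listed ligand had 1 feature, and the symbol update changed 0 symbols. With features on all 5 arrays Ccl4 was not tested. No sign changed for any named gene under these alternatives. Of 47 other named genes, 10 calls were lost with the unmoderated test, 16 against the 1.2-fold minimum and 29 with the pool as 1 control mouse. Calls were gained by Ccl24 with the unmoderated test, Ackr3 without centring and Ccl22 without mouse 1. Over all features, 3866 passed with the unmoderated test, 1847 against the 1.2-fold minimum and 513 with the pool as 1 control mouse, against 5002. No paired analysis was possible because the study has 1 group. Without intensities, how far low signal limits the small ratios was not tested.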

Other observations

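Of 19 measured genes that trim chemokines or hold them on the cell surface, 6 passed below 0 (31.6%, against 23.9% of all features), 7 above 0 (36.8%, against 25.8%) and 6 did not pass. Their median was −0.05. With the control variance added, 0 passed below 0 and 1, Ext2, passed above 0 (adjusted p = 0.0211). Above 0 were the heparan sulfate proteoglycans Gpc3, glypican 3, at 2.24 ± 1.01 (SD, n = 5 mice; adjusted p = 0.00187) and Sdc2, syndecan 2, at 1.18 ± 0.29, and the heparan sulfate polymerase Ext2 at 1.45 ± 0.25. Gpc3 varied from 0.66 in mouse 5 to 3.19 in mouse 3 and did not pass with the control variance added (adjusted p = 0.185). Ext1, the partner of Ext2 in the same polymerase, stood at −0.41 ± 0.22 on 4 arrays, on the other side of 0. Proteases lay on both sides of 0. Dpp4, which trims the end of many chemokines, stood at 0.95 ± 0.26 (adjusted p = 0.000362, and 0.0756 with the control variance added). Mmp3 stood at 0.16 ± 0.055, and both were named after their values were seen. Below 0, Mmp14, which cleaves Cxcl12, stood at −1.01 ± 0.31, and the neutrophil collagenase Mmp8 at −0.42 ± 0.42. Mmp8 (adjusted p = 0.049) no longer passed once mouse 1, 2, 3 or 5 was left out (adjusted p from 0.104 to 0.145), nor without centring (adjusted p = 0.0573).

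A list of other leukocyte attractants also held genes of their synthesis, receptors and control. Of its 8 genes with values, 2 passed below 0 (25%, against 23.9% of all features), 3 above 0 (37.5%, against 25.8%) and 3 did not pass. The median was −0.04. Ltc4s, which makes a cysteinyl leukotriene, was at −0.35 ± 0.10 and the calgranulin S100a8 at −0.24 ± 0.13. Alox5ap, needed for leukotriene synthesis, was at 0.56 ± 0.12, Lta4h at 0.31 ± 0.19 and annexin A1, Anxa1, at 0.25 ± 0.11.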
